A study of Mus musculus with 6 samples.

Results

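The TNF receptor superfamily and its ligands were examined in a mouse line of group 2 innate lymphoid cells (ILC2s) that had received a CRISPR guide against Myc. Members were taken by symbol: every gene named Tnfsf or Tnfrsf followed by a number, and Fas, Fasl, Cd27, Cd40, Cd40lg, Cd70, Ngfr and Eda2r, but not Tnfrsf1a, Tnfrsf1b, Tnfrsf14 and Tnfsf14. The rule found 35 members among 23185 named genes. Of these, 34 were protein-coding and 1, Tnfsf13os, was a long noncoding RNA gene that overlaps Tnfsf13. The TWEAK ligand gene Tnfsf12 was not analysed here.

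Superfamily ligands are mostly membrane proteins that bind as trimers and cluster their receptors, and the receptors recruit TRAF adaptors or, through a death domain, FADD and caspase-8. Costimulatory receptors such as OX40, CD137, CD30 and GITR are induced on activated lymphocytes and feed the canonical and alternative NF-kappaB pathways, whereas Fas and the TRAIL receptors can trigger apoptosis. ILC2s carry several of these receptors, and TL1A acting through DR3 and GITR ligand acting through GITR are known to enhance their cytokine output.

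The line came from C57BL/6J mice and was kept in medium with 10 ng/ml of both IL-2 and IL-33. Both groups received a lentivirus with GFP and a CRISPR guide, which targeted Myc in 3 samples and was a non-target control in the other 3. GFP-positive cells were sorted 6 days after transduction, and their total RNA was hybridised to Affymetrix arrays. The labels do not say whether the samples of a group came from separate cultures, nor what share of the sorted cells was edited, so p-values measure no more than the spread among these 6 arrays, which could be technical. Values are RMA log2 values, on which a difference of 1 is a doubling. RMA brings the probe intensities of all arrays to 1 distribution before they are summarised, so a change of every transcript by the same amount would not show. The summarised values can still differ slightly in their medians. Probe sets differ in brightness for equal amounts of RNA, so levels are compared between arrays and not between genes. The median of the gene means, 3.34, and their lower quartile, 2.10, serve only to say which probe sets were bright, and "bright" below means at or above that median. Each difference is the labelled knockout group minus the controls, ± SE from limma.

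Myc mRNA went against the labels. Its log2 difference was 0.36 ± 0.080, with all 3 values above the controls and limma's adjusted p = 0.127; with only bright genes tested, limma's adjusted p was 0.0487. Editing need not reduce an mRNA, and every direction below rests on the labels. Array medians were 3.27 to 3.34, and no array stood apart: the SD of the log2 differences to other arrays averaged 0.201 to 0.237 within a group and 0.256 to 0.272 between groups. Of 15 ILC2 markers 13 were bright, among them Gata3, Il2ra, Icos and Il13, while Thy1 and Il17rb were not.

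The E-box CACGTG is the sequence that MYC binds together with MAX, and it reads the same on both strands. RefSeq windows from 250 bases before to 50 bases after the start site (GRCm38.p6) were found for 25 of the 35 members, and 6 of these genes (24%) held the E-box: Fas, Tnfrsf4, Tnfrsf8, Tnfrsf21, Tnfrsf19 and Eda2r. Over all 27025 genes with a window the share was 8.09%. Counted by window, it was 6 of 29 for the members (20.7%) and 7.15% of all 32851. The promoters of 3 bright receptors with an E-box, and of the bright receptor gene Tnfrsf9 for comparison, whose windows held none, are shown 5′ to 3′ on the gene's strand, with the E-box in capitals.
Tnfrsf8 promoter (chr4:145315115-145315414, minus strand): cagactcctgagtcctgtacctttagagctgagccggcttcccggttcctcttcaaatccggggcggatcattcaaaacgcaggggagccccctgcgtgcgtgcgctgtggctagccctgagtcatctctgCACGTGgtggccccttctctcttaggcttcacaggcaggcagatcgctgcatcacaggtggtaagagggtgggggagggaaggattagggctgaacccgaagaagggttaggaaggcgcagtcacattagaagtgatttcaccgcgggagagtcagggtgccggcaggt
Tnfrsf4 promoter (chr4:156013445-156013744, plus strand): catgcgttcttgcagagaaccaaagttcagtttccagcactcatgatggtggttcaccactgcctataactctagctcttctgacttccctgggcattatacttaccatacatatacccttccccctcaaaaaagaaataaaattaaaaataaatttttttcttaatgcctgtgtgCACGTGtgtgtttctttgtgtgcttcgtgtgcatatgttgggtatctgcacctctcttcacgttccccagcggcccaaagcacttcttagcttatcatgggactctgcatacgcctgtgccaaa
Fas promoter (chr19:34290409-34290708, plus strand): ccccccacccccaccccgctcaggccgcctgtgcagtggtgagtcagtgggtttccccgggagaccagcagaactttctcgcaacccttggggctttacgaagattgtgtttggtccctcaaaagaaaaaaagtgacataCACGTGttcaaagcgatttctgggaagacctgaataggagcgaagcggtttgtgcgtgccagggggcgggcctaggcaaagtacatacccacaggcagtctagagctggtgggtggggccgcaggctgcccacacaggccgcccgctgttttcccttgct
Tnfrsf9 promoter (chr4:150919905-150920204, plus strand): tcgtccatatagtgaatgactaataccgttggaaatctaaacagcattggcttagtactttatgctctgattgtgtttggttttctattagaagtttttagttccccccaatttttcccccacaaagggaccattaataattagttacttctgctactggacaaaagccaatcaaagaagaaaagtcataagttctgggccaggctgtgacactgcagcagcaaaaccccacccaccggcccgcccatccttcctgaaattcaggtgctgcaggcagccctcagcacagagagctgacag

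The log2 differences of the 6 genes with the motif were 0.16 for Tnfrsf8, 0.03 for Tnfrsf4, 0.07 for Fas, 0.17 for Tnfrsf19, −0.12 for Tnfrsf21 and −0.04 for Eda2r, so both signs occurred. A match is a run of letters and not a bound site.

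No member of the superfamily passed the test between the groups. In limma, 0 of 35 rose and 0 fell at an adjusted p under 0.05 over all genes, where 0.453% of the 23185 genes passed (0.254% higher and 0.198% lower), and the smallest adjusted p of a member in limma was 0.201. At an unadjusted p under 0.05, 4 members were higher and 2 lower, a share of 17.1% beside 14.9% of all genes (6.97% higher and 7.91% lower). The groups did not overlap for 5 members, 3 higher and 2 lower (14.3%), beside 19.8% of all genes (9.25% higher and 10.6% lower). Both shares lie near the background. The median log2 difference was 0.039 for the members and 0.0077 for all genes.

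The members fall into 20 bright genes, 4 between the lower quartile and the median, and 11 below the lower quartile. For 19 of the 20 bright members the 95% confidence interval of the difference lay within 1.5-fold in either direction, and the widest bound among these was 1.34-fold. The exception was Tnfrsf25, whose interval reached 1.72-fold. These intervals are not adjusted for the number of members. Of the 20 bright members, 6 had an unadjusted p under 0.05 (30%), 4 higher and 2 lower. Of all bright genes 21.5% did, 900 higher and 1598 lower. For 5 bright members the groups did not overlap (25%), beside 29.4% of bright genes.

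**Figure D1:**
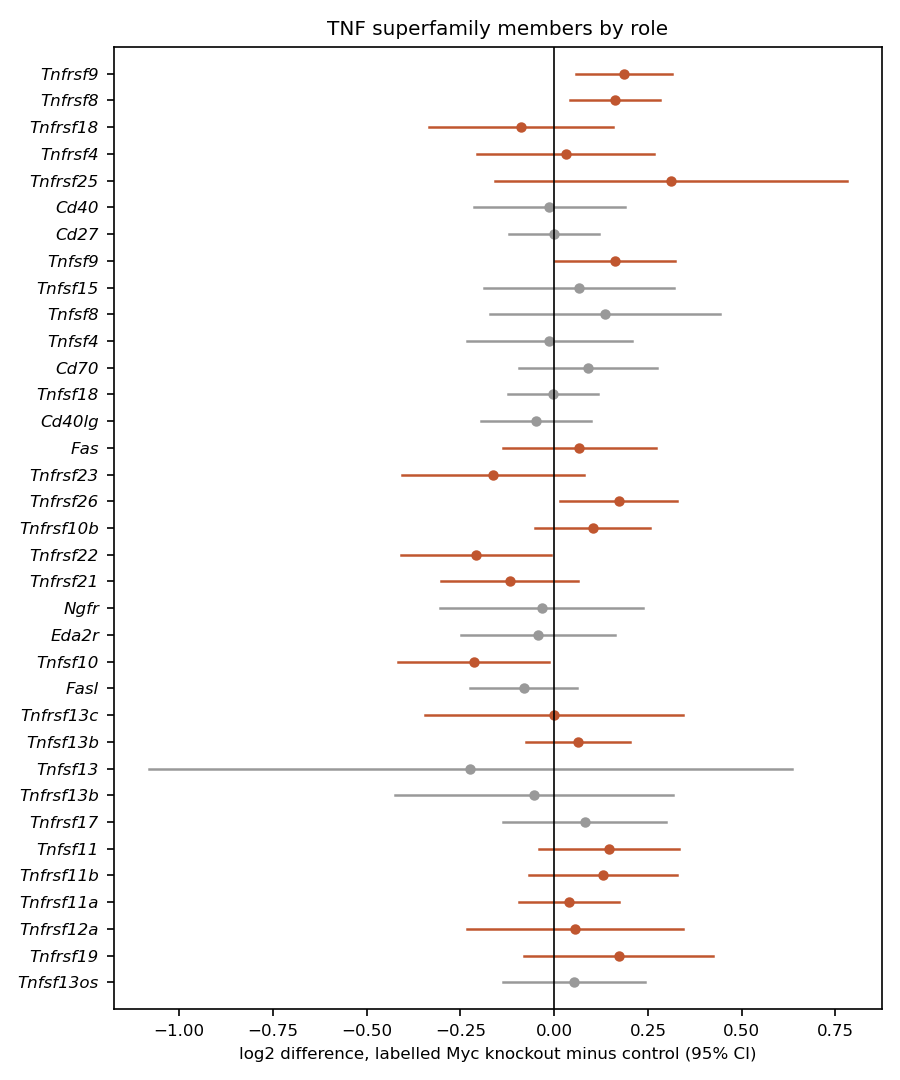
Log2 differences (labelled knockout group minus controls) for all 35 members with 95% confidence intervals from limma, ordered by role (costimulatory receptors and ligands, death and decoy receptors with their ligands, the BAFF and APRIL, RANK and TWEAK systems, others); orange marks bright members and grey the dimmer ones. Most intervals cross 0, and those of Tnfrsf25 and Tnfsf13 are the widest.

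The receptor genes of CD137 and CD30 had groups that did not overlap and very little spread between arrays. Tnfrsf9 (gene 21942) encodes CD137, a receptor induced on activated T cells and innate lymphocytes. It was at 10.73, 10.72 and 10.71 in the controls and at 10.94, 10.86 and 10.92 in the arrays labelled Myc knockout, so all 3 labelled arrays lay above all controls. The difference was 0.19 ± 0.054, a 1.14-fold higher level (95% confidence interval 1.04 to 1.24), with an unadjusted p of 0.0117 and limma's adjusted p = 0.201. Tnfrsf8 (gene 21941) encodes CD30, a receptor of activated lymphocytes. It was at 10.36, 10.35 and 10.36 in the controls and at 10.52, 10.52 and 10.51 in the labelled group, again with all 3 labelled arrays higher. The difference was 0.16 ± 0.050, or 1.12-fold (95% confidence interval 1.03 to 1.22), with an unadjusted p of 0.0157 and limma's adjusted p = 0.226.

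Both genes passed only when limma's prior variance was allowed to follow intensity, with adjusted p = 0.0386 for Tnfrsf9 and 0.0303 for Tnfrsf8 in that limma fit. No other member was called at an adjusted p under 0.05 under any of the alternatives. Over 16 alternatives limma's adjusted p ranged from 0.0386 to 0.358 for Tnfrsf9 and from 0.0303 to 0.395 for Tnfrsf8. The pooled SD within groups was 0.031 for Tnfrsf9 and 0.0074 for Tnfrsf8, beside a median of 0.095 over bright genes. The fit as reported drew both toward 1 prior SD of 0.098 for all genes, and the intensity trend replaced it by 0.041 and 0.043 at their levels. Permuting the arrays (exact test, two-sided) gave p = 0.1 for each, the smallest possible with 3 against 3.

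**Figure D2:**
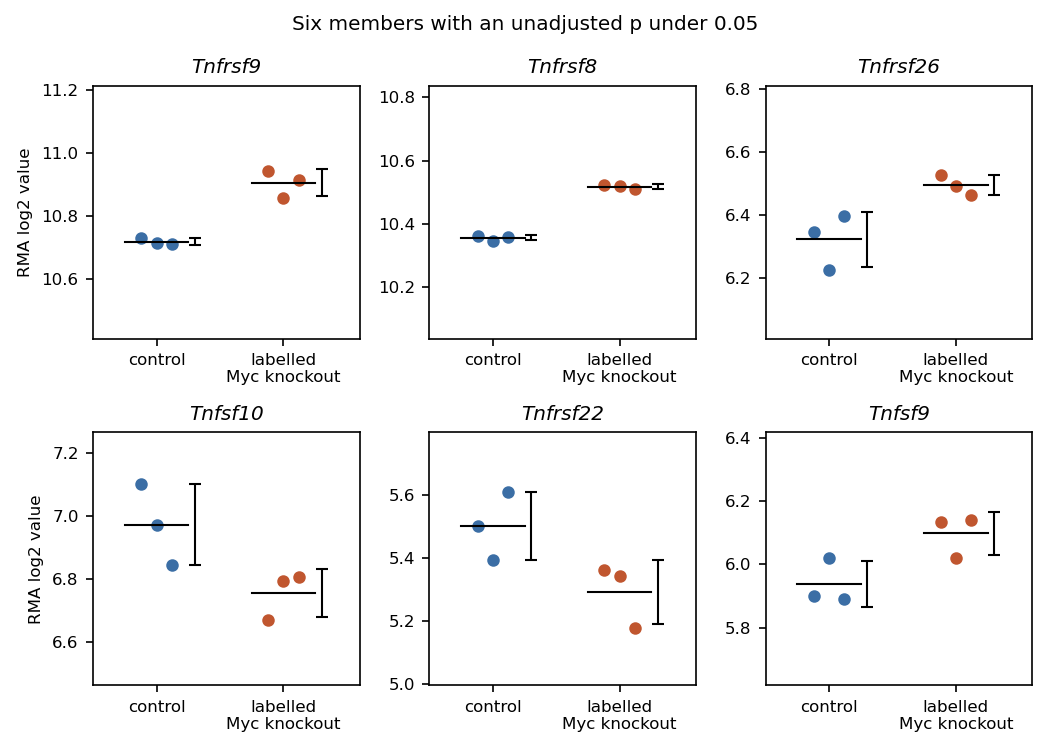
RMA log2 values of the members with an unadjusted p under 0.05 in 3 control arrays (blue) and 3 arrays labelled Myc knockout (orange); each point is an array, the long line is the group mean, the bar beside it is ± SD, and all panels span the same height, each on its own range. Tnfrsf9, Tnfrsf8 and Tnfrsf26 were higher and Tnfsf10 and Tnfrsf22 lower without overlap, whereas 1 array of each group shared a value of 6.02 for Tnfsf9.

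**Figure D3:**
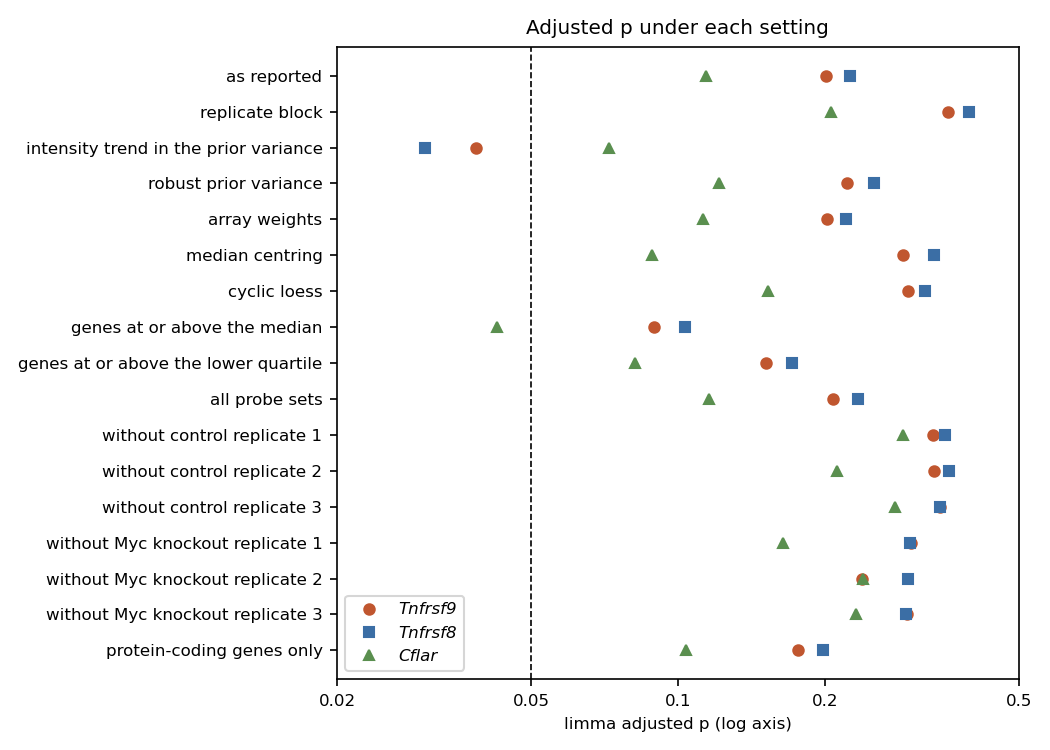
Limma's adjusted p (log axis) for Tnfrsf9, Tnfrsf8 and Cflar, the gene of the caspase-8 regulator c-FLIP, in the fit as reported and under each alternative; the dashed line marks 0.05. Tnfrsf9 and Tnfrsf8 lie left of the line only with the intensity trend, and Cflar only when bright genes alone were tested (0.0426).

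The other costimulatory receptors had overlapping groups. Tnfrsf18, which encodes GITR, was at 8.65, 8.64 and 8.73 in the controls and at 8.37, 8.70 and 8.70 in the labelled group. Replicate 1 of the labelled group was the low array, and without it the difference turned from −0.09 to 0.02. Tnfrsf4, which encodes OX40, was at 4.83, 4.70 and 5.001 in the controls and at 4.75, 4.96 and 4.91 in the labelled group. Its difference of 0.03 ± 0.098 lay within the spread of either group, and it was −0.04 if control replicate 2 was left out and −0.01 if replicate 2 of the labelled group was. Tnfrsf25, which encodes DR3, the death-domain receptor of TL1A, was at 3.05, 3.68 and 3.21 in the controls and at 3.76, 3.80 and 3.32 in the labelled group. Its difference of 0.31 ± 0.20 (limma's adjusted p = 0.498) came with arrays that overlapped and a level just above the median of the gene means. Cd40, the receptor through which T cells stimulate antigen-presenting cells, had means of 3.30 ± 0.089 and 3.29 ± 0.12 (SD, n = 3), just below that median. Cd27, a receptor of naive and memory lymphocytes, was listed at 1.69 in all 6 arrays, below the lower quartile.

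Among 7 costimulatory ligand genes only Tnfsf9 was bright. Tnfsf9 (gene 21950), the ligand of CD137, was at 5.90, 6.02 and 5.89 in the controls and at 6.14, 6.02 and 6.14 in the labelled group. Replicate 2 had the same value in both groups, and the other arrays of the labelled group lay above the other controls. The difference was 0.16 ± 0.067, or 1.12-fold (95% confidence interval 1.001 to 1.25), with an unadjusted p of 0.0489 and limma's adjusted p = 0.332. Tnfsf15, the gene of the DR3 ligand TL1A, had means of 2.88 ± 0.19 and 2.95 ± 0.091 (SD, n = 3). The OX40 ligand Tnfsf4, the CD30 ligand Tnfsf8, the GITR ligand Tnfsf18, the CD27 ligand Cd70 and the CD40 ligand Cd40lg all lay below the lower quartile, with means over the 6 arrays of 1.30 to 2.01. Levels this dim cannot show a lack of change; Tnfsf18, for example, varied by 0.0061 over the 6 arrays.

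Over 12 chosen receptor and ligand pairs, 4 had both genes bright, 5 only the receptor, 0 only the ligand and 3 neither. BAFF was set only against the BAFF receptor, and the BCMA gene Tnfrsf17 only against APRIL. The TACI gene Tnfrsf13b and the decoy receptor genes entered no pair. The counts, the 0 included, therefore hold for this choice of pairs only, and they do not compare amounts of RNA between genes. Both partners were bright for CD137, RANK, the TRAIL receptor and the BAFF receptor. The receptor alone was bright for CD30, GITR, OX40, DR3 and Fas. The BAFF gene Tnfsf13b (mean 3.38) and the DR3 gene Tnfrsf25 (mean 3.47) lay just above the cut of 3.34. By kind, 16 of 22 receptors and 4 of 12 ligands were bright. The median difference was 0.035 for receptors and 0.031 for ligands.

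The death receptor Fas and its ligand gave no separation. Fas was at 7.43, 7.32 and 7.32 in the controls and at 7.33, 7.36 and 7.59 in the labelled group, where replicate 3 was the high array. The difference of 0.07 ± 0.085 was −0.01 without that array. Fasl, which cytotoxic lymphocytes use to kill Fas-bearing cells, was below the lower quartile, at 1.95 ± 0.069 and 1.86 ± 0.018 (SD, n = 3).

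In the TRAIL system the ligand gene had lower values in all 3 labelled arrays, without passing the test. Tnfsf10 (gene 22035), which encodes TRAIL, was at 7.10, 6.97 and 6.84 in the controls and at 6.67, 6.79 and 6.81 in the labelled group, with no overlap, although the lowest control and the highest labelled array were close. The difference was −0.22 ± 0.084 (unadjusted p = 0.0393, limma's adjusted p = 0.309), and the 95% confidence interval ran from 0.749-fold to 0.990-fold. Tnfrsf10b, its death receptor, was at 5.57, 5.60 and 5.55 in the controls and at 5.58, 5.70 and 5.75 in the labelled group. That difference of 0.10 ± 0.064 had the opposite sign and overlapping arrays, and the contrast between ligand and receptor was not tested.

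The mouse decoy receptor genes of this system lie side by side, and their probe sets had differences of both signs. In the RefSeq gene table Tnfrsf26, Tnfrsf22 and Tnfrsf23 follow each other with 0 other protein-coding genes between neighbours; Tnfrsf22 and Tnfrsf23 encode TRAIL decoys and Tnfrsf26 a related receptor. Tnfrsf22 (gene 79202) was at 5.50, 5.39 and 5.61 in the controls and at 5.36, 5.34 and 5.18 in the labelled group, all 3 lower (difference −0.21 ± 0.083, unadjusted p = 0.0431, limma's adjusted p = 0.317). Tnfrsf23 was at 7.21, 7.18 and 7.03 in the controls and at 6.80, 7.01 and 7.13 in the labelled group, which overlapped (difference −0.16 ± 0.10). Tnfrsf26 (gene 244237) was at 6.34, 6.23 and 6.40 in the controls and at 6.53, 6.49 and 6.46 in the labelled group, all 3 higher (difference 0.17 ± 0.065, unadjusted p = 0.0356, limma's adjusted p = 0.299). The 3 genes are close copies, so a probe set may respond to its neighbours' transcripts. Such cross-hybridisation was not tested, and the values of the 3 genes are uncertain to that extent.

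Other members that sit next to each other in the gene table showed no shared separation either. OX40 and GITR (Tnfrsf4 and Tnfrsf18) had differences of 0.03 and −0.09, and the ligand genes Tnfsf9 and Cd70 had 0.16 and 0.09, the latter at a dim level. The ligand genes Tnfsf4, Tnfsf18 and Fasl, which also follow each other, were all below the lower quartile.

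The remaining receptors with death domains or without a settled lymphocyte role lay near or below the median of the gene means. Tnfrsf21, which encodes the death receptor DR6, was at 3.49, 3.36 and 3.41 in the controls and at 3.31, 3.41 and 3.19 in the labelled group, a difference of −0.12 ± 0.076 with overlap. Tnfrsf19, which encodes the receptor TROY, was at 3.07, 3.47 and 3.35 in the controls and at 3.47, 3.46 and 3.47 in the labelled group, so the spread lay in the controls (difference 0.17 ± 0.10). Ngfr, the p75 neurotrophin receptor, had means of 3.22 ± 0.12 and 3.19 ± 0.19, and Eda2r, a receptor for ectodysplasin, 1.74 and 1.70, below the lower quartile.

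Genes of the BAFF and APRIL system, which supports B cell and plasma cell survival, were mostly dim. Tnfrsf13c, the BAFF receptor gene, was the bright receptor, at 5.61, 5.58 and 5.27 in the controls and at 5.22, 5.57 and 5.66 in the labelled group. Each group held 1 low array, control replicate 3 and replicate 1 of the labelled group, and the means were both 5.49. Tnfsf13b, the BAFF gene, was at 3.33, 3.41 and 3.31 in the controls and at 3.44, 3.38 and 3.41 in the labelled group (difference 0.06 ± 0.058). Tnfsf13, the APRIL gene, spread widest of the members, from 1.92 to 3.26 in the labelled group and from 2.34 to 3.14 in the controls, so its difference of −0.22 ± 0.36 carries little information. The TACI gene Tnfrsf13b and the BCMA gene Tnfrsf17 averaged 2.06 and 1.93 over the 6 arrays, and the noncoding Tnfsf13os 1.66.

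The RANK system, known from osteoclasts and lymph node development, was bright throughout and had small positive differences. Tnfsf11, which encodes RANK ligand, was at 5.02, 5.18 and 5.02 in the controls and at 5.32, 5.22 and 5.12 in the labelled group. The difference of 0.15 ± 0.078 (limma's adjusted p = 0.427) came with 1 control array above 1 labelled array. Its receptor gene Tnfrsf11a was at 4.004, 3.91 and 3.97 and at 4.003, 3.98 and 4.02, a difference of 0.04 ± 0.055. Tnfrsf11b, which encodes the soluble decoy osteoprotegerin, was at 3.96, 4.21 and 3.97 in the controls and at 4.15, 4.21 and 4.17 in the labelled group (0.13 ± 0.082), where control replicate 2 was above all labelled arrays. Tnfrsf12a, which encodes the TWEAK receptor, was at 4.73, 4.77 and 4.64 in the controls and at 4.51, 4.95 and 4.85 in the labelled group; the difference of 0.05 ± 0.12 was −0.04 without replicate 2 of the labelled group.

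Genes that carry the signal of these receptors were then examined: TRAF adaptors, death-domain adaptors, caspases, ubiquitin ligases, kinases and NF-kappaB subunits. Of 45 listed genes 39 were measured, of which 38 were bright. In limma 0 rose and 0 fell at an adjusted p under 0.05 over all genes, beside 0.453% of all genes. At an unadjusted p under 0.05, 2 were higher and 9 lower (28.2%, beside 14.9% of all genes and 21.5% of bright genes). Bright genes leaned the same way, with 900 higher and 1598 lower. The groups did not overlap for 14 of the listed genes, 2 higher and 12 lower. That was 35.9%, beside 19.8% of all genes and 29.4% of bright genes, of which 1248 were higher and 2160 lower. The median difference was −0.043, against 0.0077 for all genes and −0.030 for bright genes. With median centring it was −0.067, against −0.017 for all genes. With cyclic loess it was −0.0096, against 0.0037 for all genes.

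Cflar had the smallest p of this list. It encodes c-FLIP, which blocks caspase-8 at death receptors, and was at 5.69, 5.57 and 5.82 in the controls and at 5.37, 5.12 and 5.24 in the labelled group. All 3 labelled arrays lay below all controls, a difference of −0.45 ± 0.094 (limma's adjusted p = 0.114; 0.0426 with bright genes alone). Birc2, which encodes cIAP1, a ligase that restrains cell death and the alternative NF-kappaB pathway, was at 5.90, 5.95 and 6.21 in the controls and at 5.45, 5.51 and 5.77 in the labelled group. It was lower in all 3 (difference −0.44 ± 0.12, limma's adjusted p = 0.178), as was Tab1, a partner of the kinase TAK1 (−0.35 ± 0.11, limma's adjusted p = 0.246).

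In the other direction, Casp8, the initiator caspase of death receptors, was at 9.16, 9.03 and 8.92 in the controls and at 9.26, 9.29 and 9.32 in the labelled group. The difference was 0.25 ± 0.075 with no overlap (limma's adjusted p = 0.208). Map3k14, which encodes NIK, the kinase that starts the alternative NF-kappaB pathway, was at 4.59, 4.41 and 4.32 and at 4.80, 4.60 and 4.72, again all 3 higher (0.27 ± 0.091, limma's adjusted p = 0.261). Nfkbib, an NF-kappaB inhibitor, differed by 0.17 ± 0.083 with overlap. Further genes with an unadjusted p under 0.05 were named after their values were seen. They were Tradd (−0.21 ± 0.073), Ikbkg (−0.20 ± 0.075), Rbck1 (−0.17 ± 0.066), Sharpin (−0.20 ± 0.079), Traf2 (−0.19 ± 0.073) and Ikbkb (−0.24 ± 0.096). These encode adaptors, IKK subunits and parts of the linear ubiquitin ligase. Rnf31, of the same ligase, differed by 0.029 ± 0.098, and the adaptor gene Fadd by −0.0040 ± 0.11, both with overlap. Of the measured NF-kappaB subunit genes, Rela differed by −0.10 ± 0.055, with all 3 labelled arrays below the controls (unadjusted p = 0.103), and Relb, Nfkb2 and Rel, whose groups overlapped, by −0.05, 0.04 and 0.02.

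**Figure D4:**
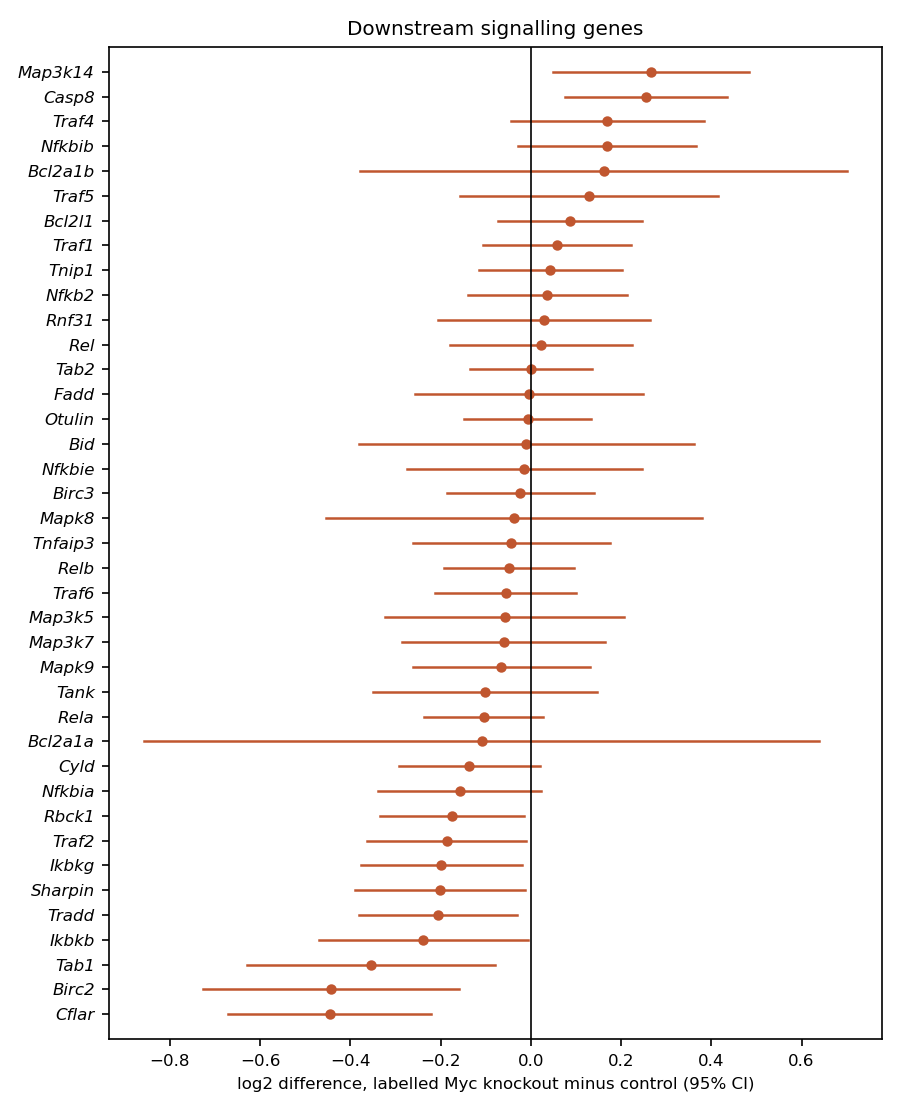
Log2 differences (labelled knockout group minus controls) of the 39 measured signalling genes with 95% confidence intervals from limma, sorted by difference. Cflar and Birc2 lie lowest, and Map3k14 and Casp8 highest, with intervals that leave out 0 and were not adjusted for the number of genes.

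Markers of other cells that a lymphoid culture could hold were mostly dim, with exceptions. Of 11 T cell markers 5 were bright, and Cd3e lay at 2.12 to 2.23 in the controls and at 1.87 to 2.12 in the labelled group. The bright CD3 chain gene Cd3g, named after its values were seen, was at 5.47 ± 0.19 and 5.04 ± 0.19 (SD, n = 3) with no overlap, a difference of −0.43 ± 0.13 (unadjusted p = 0.0148, limma's adjusted p = 0.220). The other bright T cell markers overlapped, with differences of 0.20 for Cd8a, −0.0094 for Cd247, −0.033 for Cd28 and −0.18 for Lat. Summed over the T cell list, linear levels overlapped too, at 162 to 174 in the controls and 145 to 168 in the labelled group. The only bright B cell marker of 7 was Pax5, and of 6 dendritic cell markers 0 were bright. Of 6 regulatory T cell markers 5 were bright. Foxp3, their defining transcription factor, fell from 6.12 ± 0.16 to 5.39 ± 0.095 (SD, n = 3, limma's adjusted p = 0.0458). The summed linear level of that list was 1381 to 1518 in the controls and 1562 to 1826 in the labelled group. Most of that sum was Il10, with means of 9.75 and 10.13, so it does not describe the list as a set. Ctla4 differed by 0.30 ± 0.081 and Ikzf2 by −0.29 ± 0.093, both without overlap. The ILC3 list summed to 24.1 to 28.2 and 34.3 to 37.1, with Il17a risen from a dim 2.84 ± 0.17 to 3.79 ± 0.14 (limma's adjusted p = 0.0353). Macrophage and monocyte markers summed to 133 to 152 and 99.5 to 114, with 2 of 6 bright; most of that sum was Itgam, an integrin gene that was at 6.61 ± 0.13 and 5.99 ± 0.15 (SD, n = 3; difference −0.63 ± 0.10, limma's adjusted p = 0.0767), while Adgre1 and Mrc1 differed by 0.12 and 0.22 and Csf1r by −0.0055. Summed levels did not overlap between groups for 6 of the 10 lists, 4 higher and 2 lower. Besides those named, these were the NK cell and ILC1 list and the dendritic cell list, both higher, and the mast cell and basophil list, lower. Bright members of these lists without overlap were Gzma (0.33 ± 0.099) and Mcpt8 (−0.47 ± 0.14). Most of the mast cell and basophil sum was Mcpt8, so that sum does not describe its list as a set either. The other members of that list lay below the lower quartile. Of these, Ms4a2 differed by 0.23 without overlap. Tpsab1, Fcer1a and Cpa3 differed by 0.14, 0.081 and 0.071 and Mcpt4 by −0.14, all with overlap. The dendritic cell list had 0 bright members, and how often sums over other genes separate was not examined. Of the ILC2 markers Il5 rose by 0.49 ± 0.061 and Il9r fell by 0.55 (limma's adjusted p = 0.0386 and 0.0405). None of these 4 marker calls held with any 1 array left out: limma's adjusted p was then 0.139 to 0.180 for Foxp3, 0.0901 to 0.174 for Il17a, 0.0887 to 0.174 for Il5 and 0.112 to 0.173 for Il9r. No marker was listed at 0, since the lowest value of the table was 0.417. The part of these markers in the members' values was not tested. In bulk RNA, fewer cells of a type and less RNA per cell cannot be told apart.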

How the data were processed

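Total RNA of 6 samples of the ILC2 line was measured on Affymetrix arrays, 3 per group, with groups and replicate numbers taken from the sample titles. The authors deposited log2 values made with RMA, and limma 3.14.4 is named too, per the submitters' processing notes; the type of array, how probes were grouped into sets and the genome build were not given in the sources used. Arrays have no read depth, and their number limits the precision.

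Of 25206 probe sets, 23185 had 1 gene symbol in the platform annotation, 0 had several and 2021 had none; no symbol occurred in more than 1 probe set. Differences were fitted over all 23185 genes, with no filter on level, by lmFit and eBayes of limma 3.58.1 under R 4.3.3 (no covariate, two-sided), and p-values were adjusted by Benjamini-Hochberg over all of them. The procedure was tested on simulated data whose planted changes were larger than any member's difference and whose spread did not depend on intensity. That test therefore does not cover differences as small as those of the members. Every member was accounted for; those at or above the median of the gene means or with an unadjusted p under 0.05 were named with values, and of the signalling genes the 3 with the smallest p in each direction. Members, roles and gene lists were chosen with earlier results of these data known. Alternatives tried were cyclic loess or median centring of the arrays, array weights, a replicate block, a robust or intensity-dependent prior variance, filters on level, all probe sets, other thresholds and each array left out in turn; protein-coding genes alone were added after the data were seen. Promoter sequences are RefSeq's (GRCm38.p6). Figures were drawn with matplotlib 3.10.9.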

Additional observations from a re-analysis of the deposited data

How the results depend on the processing

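With 3 arrays per group, small differences of bright genes rest on how limma estimates the spread. The count of members past the threshold was 0 in either direction in every alternative, except 2 higher when the prior variance followed intensity (162 higher and 208 lower over all genes) and 4 higher and 2 lower with unadjusted p-values (1616 and 1834 over all genes). For the signalling genes the exceptions were 1 lower with genes at or above the median level alone (204 higher and 345 lower over all genes), and 2 higher and 9 lower with unadjusted p-values. Over all genes, 59 rose and 46 fell; the counts were 92 and 100 with genes at or above the lower quartile, 185 and 228 at an adjusted p under 0.1, and 0 and 0 at an adjusted p under 0.01. Leaving out each array gave 0 to 2 higher and 0 to 1 lower over all genes and 0 among members and signalling genes. The replicate block gave 0 higher and 0 lower over all genes. Arrays that share a replicate number did not deviate together over all genes (correlations of −0.070, −0.012 and −0.017), beside −0.027 to 0.042 for arrays with different numbers. The labels do not say whether the numbers pair the samples, and correlations within groups this small cannot settle it.

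The median difference of the members was 0.015 with median centring, 0.065 over the 20 bright members and 0.015 to 0.059 with 1 array left out. That of the signalling genes was −0.067 with median centring, −0.0096 with cyclic loess and −0.050 to −0.027 with 1 array left out. For all genes the median difference was −0.017 with median centring and 0.0037 with cyclic loess. For all bright genes it was −0.030 in the fit as reported. Myc kept a positive difference of 0.31 to 0.43 with 1 array left out, and with bright genes alone it passed (0.36, limma's adjusted p = 0.0487). Of the 20 bright members, 15 kept the sign of their difference in all 6 fits with 1 array left out. Those that did not were Fas (−0.014 to 0.11), Tnfrsf18 (−0.14 to 0.021), Tnfrsf4 (−0.042 to 0.11), Tnfrsf12a (−0.038 to 0.19) and Tnfrsf13c (−0.11 to 0.13; −0.024 with median centring). Among the called markers, Il5 did not pass with median centring (limma's adjusted p = 0.05005), Il9r with cyclic loess (0.0596) or Foxp3 with array weights. Median centring moves the difference of every gene by the same amount. The filters on level test fewer genes, and the trend lowers the prior SD of the brightest, such as Tnfrsf9 and Tnfrsf8. Beyond that, the cause of these changes was not tested. Dim probe sets limit what the 15 members below the median can show.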
